A study of Mus musculus with 15 samples.

Results

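The potassium channel genes described here are the 90 protein-coding genes of the deposited tables whose symbol begins with Kcn, apart from 4 that the selection rule leaves out. The rule reads symbols and no measured value, although the gene set was picked with earlier results of these data known, and it keeps these from 94 such genes among 21949 protein-coding genes and 45777 features in all. A further 4 long noncoding RNAs with a Kcn symbol are not included. By symbol they fall into 17 pore subunits of the voltage-gated Kv1 to Kv4 families, 10 silent Kv subunits, 4 KCNQ subunits and 8 EAG, ERG and ELK subunits. Another 8 belong to the families that hold the calcium- and sodium-activated channels, grouped by symbol and not by gating. The rest are 13 inward rectifiers (Kir), 13 tandem-pore (K2P) channels and 17 auxiliary subunits.

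Potassium channels let potassium leave or enter a cell and so set its resting potential and the shape and rate of its action potentials. Voltage-gated channels open on depolarization, calcium- and sodium-activated channels open when those ions enter, inward rectifiers and tandem-pore channels hold the membrane near rest, and auxiliary subunits alter the traffic and gating of the pores. The principal cells of the striatum are spiny projection neurons, whose low resting potential and delayed firing are classically attributed to inward rectifiers and to fast-inactivating and slowly inactivating Kv currents.

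Striatal RNA was sequenced from male ICR mice, an outbred wild-type stock, at 7 weeks of age. Founder males, 6 weeks old, were injected under the skin with methamphetamine (METH, a psychostimulant that releases dopamine) at 5 mg/kg or with saline at 10 mL/kg on each of 21 days and were then mated with untreated females. The founders' sons are the F1 mice, and sons that F1 males sired with untreated females are the F2 mice; the protocol describes dosing of founders only. The 15 libraries comprised 4 from F1 saline and 3 from F1 METH mice in 1 table and 4 from F2 saline and 4 from F2 METH mice in another, and METH and saline name the founder's treatment throughout. Which animals share a litter or a founder is not stated in the labels, and p-values therefore measure only the spread between these animals.

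F1 libraries held 32805918 to 38514778 counts and F2 libraries 31563806 to 50573906. Neuronal is the cell type the labels state, but markers of astrocytes, oligodendrocytes, microglia and vessels were present in all 15 libraries, summing for example to 2997 to 5163 CPM over 8 astrocyte markers in F1. Markers of spiny projection neurons summed to between 5811 and 10429 CPM. Markers of cortical excitatory neurons (10 genes) differed far more between libraries, from 52.2 to 829.9 CPM in F1 saline, 64.8 to 623 CPM in F1 METH, 54.5 to 297 CPM in F2 saline and 45.7 to 221 CPM in F2 METH. The highest were replicates 3 and 1 among F1 saline, 3 among F1 METH, 4 among F2 saline and 2 among F2 METH libraries. In such bulk tissue, fewer cells of a type and less RNA per cell cannot be told apart.

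Potassium channel genes were broadly expressed in the striatum. Levels are given as the authors' TPM (a share of transcripts corrected for gene length, so that genes can be compared), as the median and range over the 15 libraries. Of the 90 genes, 42 had a median of at least 10 TPM, 9 of at least 100 TPM and 20 of under 1 TPM, and Kcnk16 and Kcnk18 had no read in any library. For comparison, the median over the 22483 genes with a median above 0 was 6.59 TPM. Summed over the 90 genes, the level ran from 2932 to 3122 TPM in F1 and from 3315 to 3636 TPM in F2 libraries, without overlap. Of the sum of the 90 medians, auxiliary subunits made up 35.2%, Kv1 to Kv4 subunits 14.7%, inward rectifiers 14.3% and KCNQ subunits 9.95%. EAG-type subunits made up 7.65%, activated channels 7.51%, K2P channels 6.49% and silent subunits 4.15%. The F1 and F2 tables were normalized separately. The lowest library was an F1 library for every range below but those of Kcnip3 and Kcnmb4. The ranges therefore hold any difference between the tables as well as the spread between animals.

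The most abundant genes were not pores but auxiliary subunits. Kcnip2, which encodes the calcium-binding KChIP2 subunit of Kv4 channels, stood at 385 TPM (295 to 444). Kcnab1 and Kcnab2, the cytoplasmic Kv beta subunits of Kv1 channels, followed at 302 TPM (201 to 348) and 236 TPM (214 to 256). Kcnip3, a KChIP that is also known as the transcriptional repressor DREAM, stood at 88.2 TPM (68.1 to 110.5), and Kcnmb4, the neuronal beta subunit of the BK calcium-activated channel, at 66.9 TPM (51.3 to 119). These 5 were followed by Kcnip4 (31.8 TPM), Kcne1l (14.1 TPM), Kcnab3 (13.1 TPM) and Kcnip1 (8.69 TPM). The remaining Kcne and Kcnmb genes and Kcnrg lay lower, and Kcne1, Kcne2, Kcne3, Kcnmb3 and Kcnrg had too few reads for a test. Of the exon bases of Kcnmb4, 49.3% lie under exons of the antisense gene Kcnmb4os2 and 26.0% under Kcnmb4os1, so its reads are uncertain because the strand setting is not given in the sources used here.

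Among the Kv1 to Kv4 pores, those of fast-inactivating and axonal currents were present. Kcnd2, the Kv4.2 pore that passes fast A-type current and pairs with KChIP2, led its class at 94.5 TPM (64.8 to 109). The axonal Kv1 pores Kcna1 and Kcna2 stood at 63.7 TPM and 45.6 TPM, and Kcna4, the Kv1.4 pore that inactivates quickly, at 21.6 TPM. Kcnc1, a Kv3 pore of fast-spiking neurons, stood at 57.7 TPM. At the other end, Kcnb2 was at 1.65 TPM, and Kcna7 and Kcna10 had 2 and 10 reads in all. Kcna6 (26.1 TPM) shares 40.4% of its exon bases with a gene on the opposite strand and is uncertain for the same reason as Kcnmb4.

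KCNQ subunits carry the M-current, which is closed by muscarinic receptors and restrains repetitive firing. Kcnq3 stood at 49.1 TPM (37.8 to 62.3) and Kcnq5 at 46.7 TPM (37.3 to 55.8). In the EAG, ERG and ELK class the ELK genes led, with Kcnh3 at 128 TPM (107 to 143) and Kcnh4 at 48.3 TPM (29.6 to 64.2), followed by the EAG gene Kcnh1 (32.0 TPM) and the ERG gene Kcnh2 (27.5 TPM). The silent subunits, which form no channel alone but modify Kv2 channels, were led by Kcnf1 at 44.0 TPM (26.5 to 60.8), Kcng1 at 36.1 TPM and Kcns2 at 24.1 TPM.

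Kcnt1, encoding the sodium-activated Slack channel, led the ion-activated class at 139 TPM (115 to 187). Kcnma1, the BK pore, stood at 40.2 TPM, and the SK pores Kcnn2, Kcnn3 and Kcnn1, which carry afterhyperpolarizing current, at 29.9 TPM, 18.2 TPM and 13.1 TPM. Among inward rectifiers, Kcnj4 (Kir2.3) was highest at 192 TPM (148 to 245) and Kcnj10 (Kir4.1, the potassium-buffering channel of glia) next at 138 TPM (94.5 to 209). Kcnj11, the pore of ATP-sensitive channels, stood at 39.0 TPM, Kcnj2 (Kir2.1) at 34.2 TPM, and the G-protein-gated GIRK subunits Kcnj9, Kcnj3, Kcnj6 and Kcnj5 at 38.4 TPM, 5.19 TPM, 1.68 TPM and 0.547 TPM. Kcnk1 (TWIK-1) and Kcnk2 (TREK-1) were the only K2P genes above 10 TPM, at 103 TPM (86.5 to 130.4) and 87.3 TPM (62.0 to 98.4). In all 8 classes the authors' FPKM values put the same 3 genes first in the same order.

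**Figure D1:**
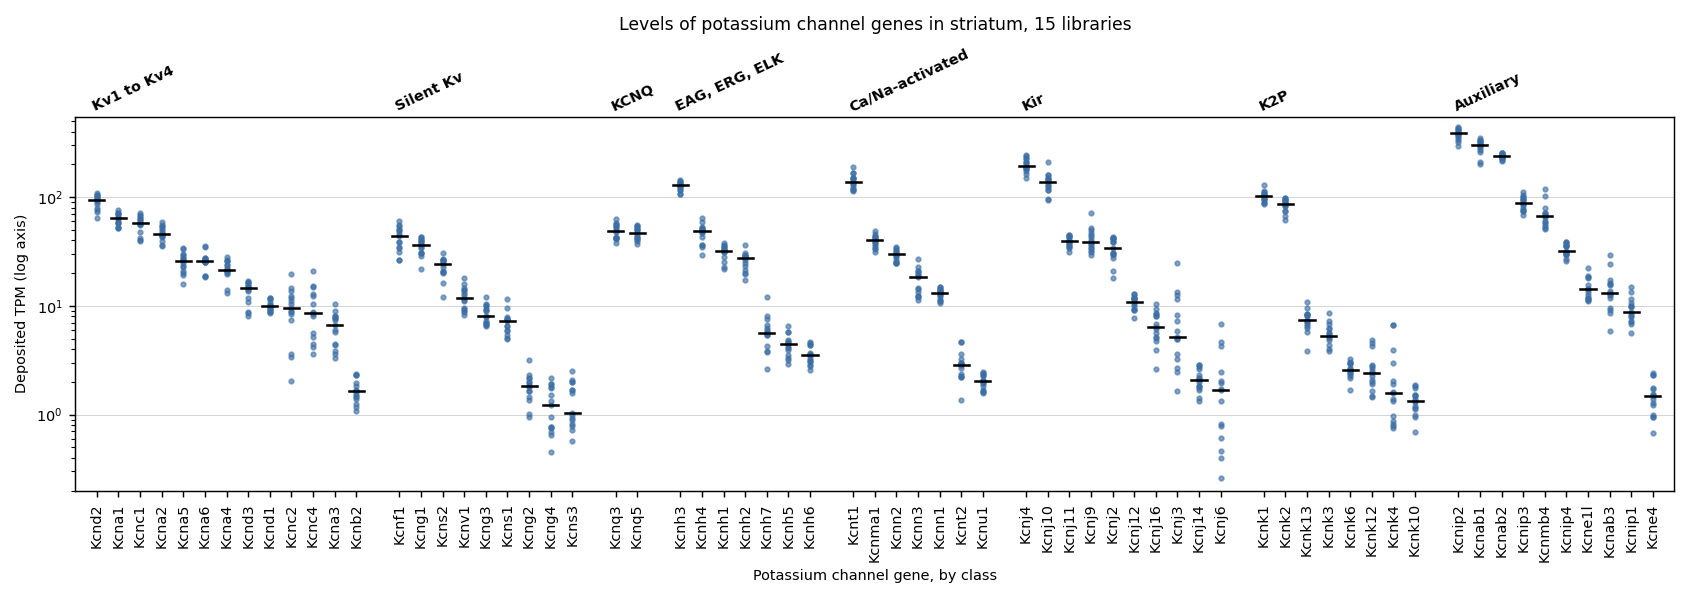
Deposited TPM (log axis) of the potassium channel genes with a median of at least 1 TPM, by class; each point is 1 of 15 libraries and each bar the median. Kcnip2 is highest at a median of 385 TPM, and Kcnj6, Kcnj3, Kcnk4, Kcnc2 and Kcnc4 spread more widely between libraries than their neighbours.

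Some genes were steady from animal to animal and others were not. The coefficient of variation of CPM (counts scaled to a common library size by TMM) within groups averaged 0.054 for Kcnab2, 0.067 for Kcna1, 0.069 for Kcnq3 and 0.072 for Kcnj11, among the lowest of the 75 genes tested in both generations. At the other end were the GIRK genes Kcnj6 at 0.89 and Kcnj3 at 0.48, the K2P gene Kcnk4 (TRAAK) at 0.69, the BK beta gene Kcnmb2 at 0.50 and the silent subunit Kcng4 at 0.49. Kcnk4, Kcnmb2 and Kcng4 had 1051, 428 and 1051 reads over the 15 libraries, against 190454 for Kcnab2. The part of counting noise in these coefficients was not tested.

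The first comparison asked whether sons of METH-treated founders differed in expression from sons of saline-treated founders. No potassium channel gene passed the test. In the F1 fit 76 of the 90 genes had enough reads to be tested, and edgeR's quasi-likelihood test with Benjamini-Hochberg adjustment over all genes called 0 of them and 0 of 18499 genes (0%). At an unadjusted p under 0.05 it listed 8 of the 76, against 4.18% of all genes tested: 3 higher in METH libraries (2.52% of all genes) and 5 lower (1.66%). DESeq2 called 11 genes in all and limma-voom 3, none of them a potassium channel gene.

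In F1 the METH and saline libraries did not overlap for 6 of the 76 genes, against 5.5% of all genes tested. The METH range was wholly above saline for Kcnt1, Kcnh4 and Kcnip3 (3 genes, against 3.08% of all genes) and wholly below it for Kcnip4, Kcns1 and Kcnh8 (3 genes, against 2.42%). Each is given in turn as TMM-scaled CPM, which compares 1 gene between libraries but not 1 gene with another.

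Kcnt1 was at 349, 330.1, 345 and 396 CPM in replicates 1 to 4 of F1 saline and 459, 435 and 454 CPM in replicates 1 to 3 of F1 METH libraries. All 3 METH libraries lay above the highest saline library, replicate 4. The log2 fold change was 0.34 (SE 0.083, unadjusted p = 0.00292), the smallest p of any potassium channel gene in F1. In edgeR's quasi-likelihood test the smallest adjusted p of any potassium channel gene in F1 was 0.994. Kcnh4, the ELK subunit Kv12.3, was at 54.1, 45.7, 54.4 and 76.1 CPM in replicates 1 to 4 of F1 saline and 84.6, 77.1 and 78.3 CPM in replicates 1 to 3 of F1 METH libraries. The nearest libraries were saline replicate 4 and METH replicate 2. Its log2 fold change was 0.47 (SE 0.15, unadjusted p = 0.0135). Kcnip3 was at 91.1, 84.2, 96.8 and 115 CPM in replicates 1 to 4 of F1 saline and 123, 116 and 121 CPM in replicates 1 to 3 of F1 METH libraries, again with saline replicate 4 nearest to the METH libraries, and its log2 fold change was 0.31 (SE 0.10, unadjusted p = 0.0155).

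Kcnip4, another KChIP of Kv4 channels, was at 38.7, 37.5, 39.3 and 33.1 CPM in replicates 1 to 4 of F1 saline and 32.9, 31.5 and 28.0 CPM in replicates 1 to 3 of F1 METH libraries. Saline replicate 4 and METH replicate 1 nearly touched, and the log2 fold change was -0.27 (SE 0.094, unadjusted p = 0.0186). Kcns1, a silent partner of Kv2 channels, was at 8.20, 7.91, 12.3 and 10.7 CPM in replicates 1 to 4 of F1 saline and 6.99, 7.47 and 6.07 CPM in replicates 1 to 3 of F1 METH libraries. Saline replicates 3 and 4 were well above the rest, and the log2 fold change was -0.52 (SE 0.18, unadjusted p = 0.0216). Kcnh8, the ELK subunit Kv12.1, was at 0.883, 0.876, 0.920 and 0.501 CPM in replicates 1 to 4 of F1 saline and 0.343, 0.364 and 0.393 CPM in replicates 1 to 3 of F1 METH libraries. It had the largest fitted difference of the 76 genes, a log2 fold change of -1.11 (SE 0.34, unadjusted p = 0.011), at a level that rests on 11 to 35 reads per library.

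The other genes with an unadjusted p under 0.05 in F1 had overlapping groups. Kcnd3, the Kv4.3 pore, was at 36.3, 52.7, 49.3 and 28.5 CPM in replicates 1 to 4 of F1 saline and 26.7, 27.6 and 34.4 CPM in replicates 1 to 3 of F1 METH libraries, with saline replicates 2 and 3 high and a log2 fold change of -0.50 (SE 0.21, unadjusted p = 0.0422). Kcnip1, a KChIP of Kv4 channels in interneurons, was at 9.41, 12.5, 14.0 and 7.78 CPM in replicates 1 to 4 of F1 saline and 7.11, 7.19 and 8.70 CPM in replicates 1 to 3 of F1 METH libraries, with the same pair of saline replicates high. Its log2 fold change was -0.51 (SE 0.21, unadjusted p = 0.039). Among abundant pores the F1 log2 fold change was -0.027 (SE 0.12) for Kcnj4, 0.023 (SE 0.14) for Kcnd2 and 0.055 (SE 0.095) for Kcnk1.

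**Figure D2:**
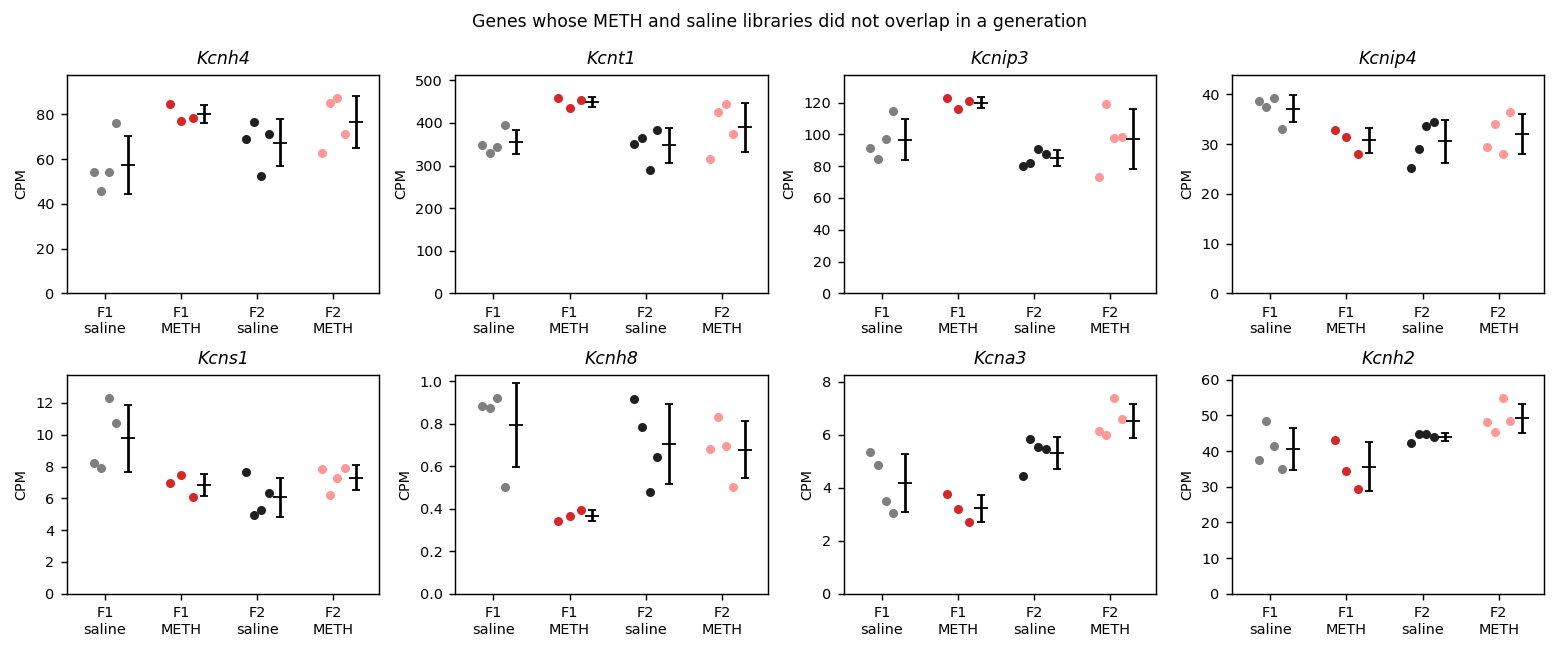
CPM of the 8 genes whose METH and saline libraries did not overlap in F1 (Kcnh4 to Kcnh8) or in F2 (Kcna3 and Kcnh2); points are libraries and bars are mean ± SD, on axes from 0. In the other generation the groups of each gene overlap.

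More potassium channel genes had a lower than a higher value in F1 METH libraries. Of the 76 tested, 50 had a log2 fold change below 0 and 26 above, with a median of -0.083, while over all 18499 genes 50.9% were below 0 and the median was -0.004. By class, 4 of the 7 groups of pores had more estimates below 0 than above. In Kv1 to Kv4, 13 of 15 tested genes were below 0 (median -0.13), among them Kcnc4 (-0.69), Kcnc2 (-0.65), Kcnd3 (-0.50) and Kcna3 (-0.38). Single libraries moved these values: Kcnc4 ran from -1.31 without METH replicate 3 to -0.28 without saline replicate 3, Kcnc2 from -1.46 to -0.25 without the same libraries, and Kcna3 from -0.51 without saline replicate 4 to -0.24 without saline replicate 1. Of the inward rectifiers 8 of 11 were below 0 (median -0.15), of the silent subunits 7 of 9 (median -0.23) and of the EAG class 6 of 8 (median -0.19). Auxiliary subunits were divided 6 and 6, K2P genes 5 and 5 and KCNQ genes 2 and 2, and 3 of 7 ion-activated genes were below 0. None of these genes passed the test, and the count gives only the sign of each estimate. With limma on log2 of deposited TPM + 1, 53 of 72 genes were below 0, as were 11215 of 17544 genes overall.

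Several marker lists had most of their F1 estimates on 1 side of 0 too, with 0 markers called. Cortical excitatory markers were below 0 for 9 of 10 genes (median log2 fold change -0.56), within the ranges given above. Endothelial markers summed to 234 to 258 CPM in saline and 279.6 to 296 CPM in METH libraries, with 6 of 7 above 0. Pericyte and smooth muscle markers (6 of 6 above 0) summed to 173 to 207 and 228 to 232 CPM, oligodendrocyte markers (8 of 8 above 0) to 6884 to 8613 and 7708 to 10828 CPM, and oligodendrocyte precursor markers (5 of 5 above 0) to 369 to 424 and 447 to 580.3 CPM. No marker of these 5 lists was at 0 in every library. Spiny projection markers were above 0 for 9 of 11 genes in F1 (median log2 fold change 0.14) and for 9 of 11 in F2 (median 0.052). Interneuron markers were below 0 for 6 of 8 genes in F1 (median -0.080) and for 7 of 8 in F2 (median -0.080). With the mean of the cortical markers as a covariate, 46 of 76 potassium channel genes were below 0 and the median was -0.072. Without the libraries with the most Slc17a7, a cortical marker, which leaves F1 groups of 2 and 2, 50 of 76 were below 0 and the median was -0.11. The part of the glial, vascular, spiny projection and interneuron markers in these values was not tested.

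The second comparison asked the same of grandsons. In F2, 76 genes were tested, and edgeR's quasi-likelihood test with Benjamini-Hochberg adjustment called 0 of them and 0 of 18093 genes (0%), with an adjusted p of at least 0.960. At an unadjusted p under 0.05 it listed 5 of the 76, against 4.77% of all genes: 2 higher in METH libraries (2.11% of all genes) and 3 lower (2.66%). DESeq2 called 7 genes and limma-voom 1, none of them a potassium channel gene. Signs were even: 39 genes were above 0 and 37 below, where 50.5% of all genes were below 0, with a median of 0.003 against -0.002 over all genes. Class medians ran from -0.057 in K2P channels to 0.10 in the EAG class.

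In F2 the groups did not overlap for 2 of the 76 genes, against 2.54% of all genes. In both the METH libraries were higher (1.34% of all genes), and in 0 were they lower (1.2%). Kcnh2, the ERG channel that also repolarizes the heart, was at 42.3, 44.9, 44.7 and 44.0 CPM in replicates 1 to 4 of F2 saline and 48.1, 45.2, 54.8 and 48.4 CPM in replicates 1 to 4 of F2 METH libraries. METH replicate 2 lay just above saline replicate 2, METH replicate 3 was the highest, and the log2 fold change was 0.16 (SE 0.07, unadjusted p = 0.0443). In F1 the same gene leaned the other way, at -0.19 (SE 0.15), with overlapping groups. Kcna3, a Kv1.3 pore also found in microglia and lymphocytes, was at 4.42, 5.81, 5.53 and 5.47 CPM in replicates 1 to 4 of F2 saline and 6.12, 5.98, 7.37 and 6.57 CPM in replicates 1 to 4 of F2 METH libraries. METH replicate 3 was highest and saline replicate 1 lowest, and the log2 fold change was 0.29 (SE 0.13, unadjusted p = 0.0503).

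Overlapping F2 groups with an unadjusted p under 0.05 were seen for 4 more genes. Kcnk1 was at 102, 116, 101 and 87.2 CPM in replicates 1 to 4 of F2 saline and 89.4, 91.2, 81.2 and 91.8 CPM in replicates 1 to 4 of F2 METH libraries, with saline replicate 2 high and METH replicate 3 low, and had the smallest p in F2, with a log2 fold change of -0.20 (SE 0.084, unadjusted p = 0.0382). Kcnj16 (Kir5.1, a partner of Kcnj10 in glia) was at 11.4, 7.91, 11.4 and 11.2 CPM in replicates 1 to 4 of F2 saline and 8.77, 7.16, 8.35 and 9.41 CPM in replicates 1 to 4 of F2 METH libraries, a log2 fold change of -0.32 (SE 0.14, unadjusted p = 0.0474), with saline replicate 2 within the METH range. Kcnd3 had a log2 fold change of -0.14 (SE 0.062, unadjusted p = 0.044) and Kcng3, a silent subunit, of 0.23 (SE 0.11, unadjusted p = 0.0495). Of the 75 genes tested in both generations, Kcnd3 was thus the 1 with an unadjusted p under 0.05 in each. It was lower in METH libraries each time, while neither value passed the adjusted threshold. Over all genes the shares in a single generation were 4.18% in F1 and 4.77% in F2, and the share listed in both was not counted. The F2 libraries of Kcnd3 were at 44.7, 43.3, 47.6 and 45.2 CPM in saline and 40.1, 40.1, 39.8 and 43.7 CPM in METH mice, overlapping through METH replicate 4.

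Astrocyte, oligodendrocyte and microglia markers were all below 0 in F2 (8 of 8, 8 of 8 and 7 of 7, with median log2 fold changes of -0.18, -0.14 and -0.20), whereas 6 of 8, 8 of 8 and 6 of 7 were above 0 in F1. Kcnj10 estimates were above 0 in F1 and below 0 in F2. The gene was at 256, 277, 263 and 218 CPM in replicates 1 to 4 of F1 saline and 226, 266 and 361 CPM in replicates 1 to 3 of F1 METH libraries, a log2 fold change of 0.16 (SE 0.16). In F2 it was at 438, 300.1, 328 and 278 CPM in replicates 1 to 4 of F2 saline and 315, 270.0, 269 and 297 CPM in replicates 1 to 4 of F2 METH libraries, a log2 fold change of -0.22 (SE 0.13). METH replicate 3 was the highest F1 library and saline replicate 1 by far the highest F2 library, and the groups overlapped in both generations. The F1 sign rested on METH replicate 3, without which the F1 value was -0.049. The part of the glial markers in the Kcnj10 values was not tested.

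The difference between generations was tested as an interaction over all 15 libraries, as the F2 minus the F1 log2 fold change. Of 77 potassium channel genes tested, edgeR's quasi-likelihood test with Benjamini-Hochberg adjustment called 0, and it called 1 of 19308 genes (0.00518%). The smallest adjusted p among the 77 was 0.898, and 4 genes had an unadjusted p under 0.05, against 4.88% of all genes: 3 above 0 (1.72% of all genes) and 1 below (3.16%). DESeq2 called 8 genes and limma-voom 0, with no potassium channel gene among them. Kcns1 had the smallest p, with a difference of 0.78 (SE 0.25, unadjusted p = 0.00654). It was at 7.69, 4.97, 5.24 and 6.33 CPM in F2 saline and 7.85, 6.20, 7.30 and 7.88 CPM in F2 METH libraries, which overlapped, whereas its F1 METH libraries lay below saline.

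Kcnn2, the SK2 pore, showed the opposite lean. It was at 39.1, 36.5, 36.1 and 37.7 CPM in replicates 1 to 4 of F1 saline and 43.8, 37.4 and 49.4 CPM in replicates 1 to 3 of F1 METH libraries and at 44.9, 46.3, 48.5 and 39.0 CPM in replicates 1 to 4 of F2 saline and 38.7, 42.0, 40.1 and 40.7 CPM in replicates 1 to 4 of F2 METH libraries. METH replicates 1 and 3 were highest in F1, and saline replicates 1 to 3 were highest in F2. The log2 fold changes were 0.22 and -0.15, and their difference was -0.38 (SE 0.12, unadjusted p = 0.00784). Kcna3 differed by 0.66 (SE 0.26, unadjusted p = 0.0219) and Kcnh8 by 1.05 (SE 0.43, unadjusted p = 0.0277). Of the 77 genes, 41 had a difference above 0 and 36 below, where 50.1% of all genes were below. On log2 of deposited TPM + 1 the division was 53 and 21 of 74, while 11205 of 17592 genes overall were then above 0.

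Some genes stood at other levels in the F1 and F2 tables, in both treatment groups, of which a pair is named after its values were seen. Kcnn3 (SK3) averaged 41.7 ± 3.99 and 39.6 ± 2.57 CPM in F1 saline and METH mice (mean ± SD, n = 4 and n = 3) and 62.6 ± 10.7 and 57.1 ± 4.06 CPM in F2 (n = 4 and n = 4). Kcnmb4 averaged 37.6 ± 9.16 and 37.4 ± 7.92 CPM in F1 and 24.5 ± 2.93 and 24.5 ± 2.60 CPM in F2. These CPM were scaled within each generation, so F1 and F2 values were not scaled together. How many of all genes differ as much between the tables was not counted, and the reads of Kcnmb4 are uncertain, as stated above. Each generation has a table of its own, so generation and table cannot be told apart.

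The levels of some of these genes varied between libraries along with cell type markers. Pearson's r was computed over the 15 libraries between the log2 CPM of each of 77 genes and the mean log2 CPM of each of 11 marker lists. The libraries share depth, table and dissection, and the lists move together (the cortical list had r = -0.85 with the spiny projection list and 0.88 with the interneuron list), so these values only describe the libraries and carry no p. With the cortical list, 9 of 77 potassium channel genes (11.7%) had r of at least 0.8, against 1.84% of 19308 genes, and 8 (10.4%) had r below -0.6, against 3.06%.

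The 9 genes that were high where cortical markers were high included 3 of the 4 GIRK subunits. Kcnj6 had r = 0.96 (Spearman's rho 0.95), Kcnj3 r = 0.96 (rho 0.94) and Kcnj9 r = 0.87 (rho 0.76). Kcnj6 was at 17.5, 11.0, 43.5 and 2.08 CPM in F1 saline, 3.18, 5.36 and 30.8 in F1 METH, 3.56, 4.01, 8.66 and 23.5 in F2 saline and 2.60, 11.4, 10.4 and 8.85 in F2 METH replicates. Its highest library in each group was the one with the most cortical marker signal. Kcnj3 was at 25.8, 21.0, 49.1 and 7.68 CPM in F1 saline, 9.98, 11.5 and 29.8 in F1 METH, 10.1, 10.2, 18.5 and 22.3 in F2 saline and 11.1, 18.7, 14.6 and 14.8 in F2 METH replicates, in the same order of libraries at the top of each group. Exons of a gene on the opposite strand cover 31.1% of its exon bases, so its reads are uncertain.

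The other genes of this kind were the K2P genes Kcnk4 (0.95) and Kcnk12 (0.83), the Kv3.4 pore Kcnc4 (0.92), the sodium-activated Kcnt2 (0.89), the ERG gene Kcnh7 (0.82) and the BK pore Kcnma1 (0.81). Within each generation r was between 0.47 and 0.98 for these 9 genes, and with group means removed it was between 0.84 and 0.97. Without the 2 libraries farthest from the median of the cortical mean it was 0.94 for Kcnj6, 0.94 for Kcnj3, 0.91 for Kcnk4 and 0.64, the lowest, for Kcnh7. A log2 unit of the cortical mean went with 0.90 log2 units of Kcnj6, 0.49 of Kcnj3 and 0.08 of Kcnma1. Their F1 log2 fold changes had wide errors, at -0.50 (SE 0.97) for Kcnj6, -0.60 (SE 0.58) for Kcnj3 and -0.69 (SE 0.52) for Kcnc4. The Kcnj6 estimate rested on single libraries: it was -2.12 without F1 METH replicate 3 and 0.36 without F1 saline replicate 3. For Kcnj3 the corresponding values were -1.27 and -0.083.

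The 8 genes with the opposite relation included Kcnip2 and Kcnab1, the first and second by level. Kcnip2 had r = -0.88 with the cortical list (rho -0.84; -0.93 in F1, -0.88 in F2) and 0.82 with the spiny projection list. It was at 344, 332, 282 and 424 CPM in replicates 1 to 4 of F1 saline and 406, 434 and 320.0 CPM in replicates 1 to 3 of F1 METH libraries, lowest in saline replicate 3 and METH replicate 3. Kcnk2, Kcnab1, Kcnj4 and Kcna4 had r of -0.75, -0.74, -0.71 and -0.70 with the cortical list and 0.83, 0.92, 0.81 and 0.79 with the spiny projection list. These values rest in part on F1 saline replicate 3 and F1 METH replicate 3: without those 2 libraries, which were the farthest from the median, the cortical r was -0.48, -0.36, -0.40 and -0.30, while that of Kcnip2 was -0.82. The other 3 genes were Kcnd2 (-0.64), Kcnj2 (-0.64) and Kcne1l (-0.61), at -0.19, -0.11 and -0.51 without the same libraries. With group means removed, r was between -0.93 and -0.60 for the 8.

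**Figure D3:**
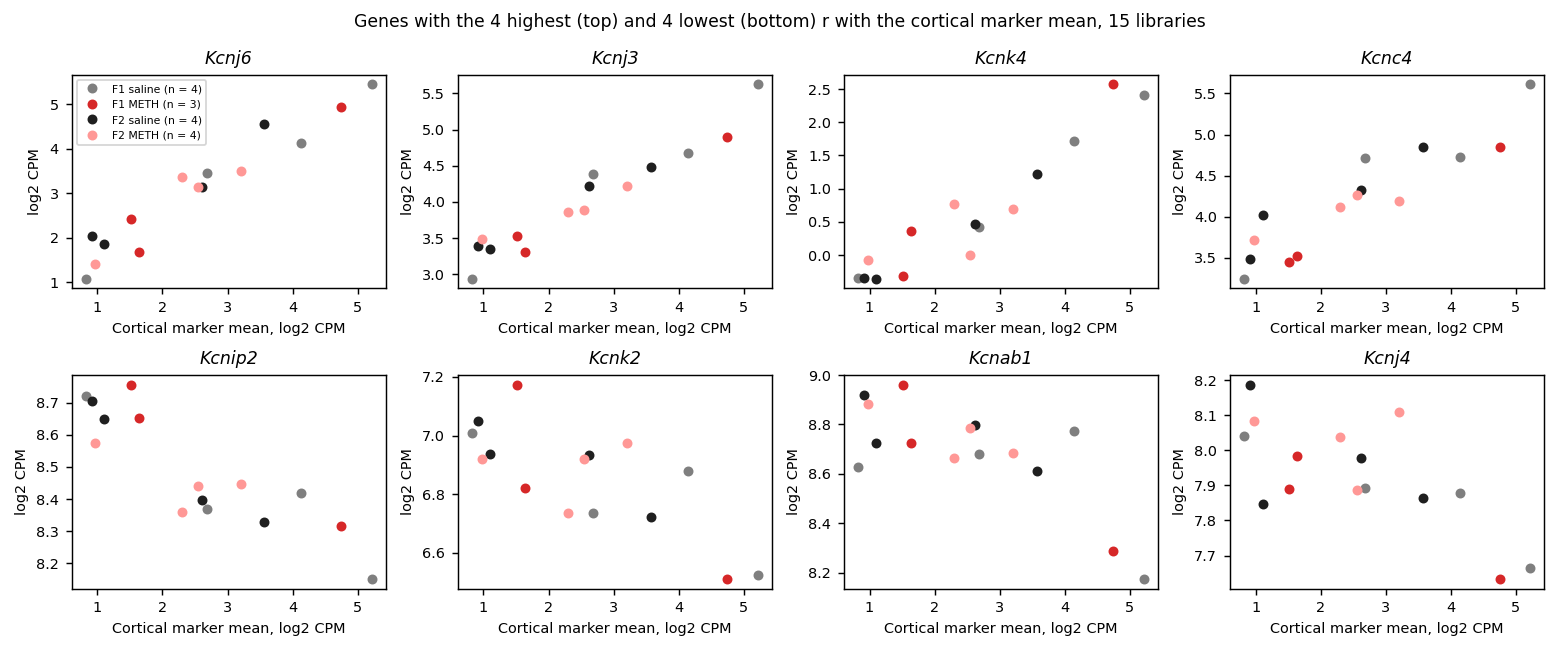
Log2 CPM of the 4 genes with the highest r (top) and the 4 with the lowest r (bottom) against the mean log2 CPM of 10 cortical markers; each point is a library, coloured by group. Kcnj6 spans from about 1 to over 5 log2 CPM along the marker mean, and the vertical scale of the bottom panels is much narrower.

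Other lists went with other genes. Kcnj10 had r = 0.86 with astrocyte and 0.91 with oligodendrocyte precursor markers (0.80 and 0.82 without the 2 farthest libraries). The Kv3.2 pore Kcnc2 and the inward rectifier Kcnj16 had r = 0.94 and 0.93 with the markers of thalamus, septum and hypothalamus. Kcnab3 and Kcna6 had 0.86 and 0.83 with the same list. That list had r = 0.80 with the interneuron list and 0.63 with the cortical list, so these genes cannot be tied to it alone. Kcnc2 was at 20.8, 34.0, 45.3 and 5.65 CPM in replicates 1 to 4 of F1 saline and 8.21, 11.0 and 31.3 CPM in replicates 1 to 3 of F1 METH libraries, lowest in saline replicate 4 and highest in saline replicate 3. Within each generation its r with the thalamus, septum and hypothalamus list was 0.99 and 0.80. Kcna3 had r = -0.82 with endothelial markers over the 15 libraries but -0.30 within groups.

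**Figure D4:**
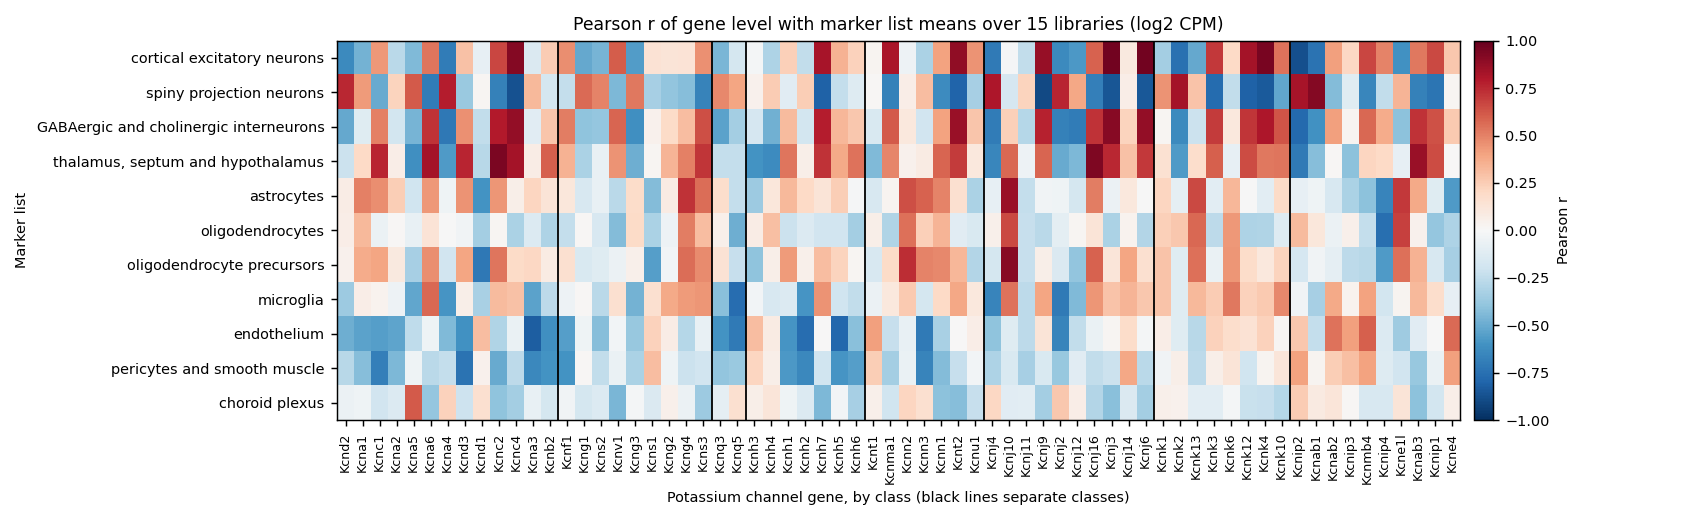
Pearson's r over 15 libraries (colour, from -1 to 1) between the log2 CPM of each tested gene with a median of at least 1 TPM (columns, by class) and the mean log2 CPM of 11 marker lists (rows). Kcnc4, Kcnt2, Kcnj3, Kcnj6, Kcnj9 and Kcnk4 are dark red with cortical markers, and Kcnip2, Kcnab1, Kcnk2 and Kcnj4 are red with spiny projection markers.

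By the RefSeq positions of GRCm38.p6, the genes lie on 19 chromosomes, and 17 pairs of neighbours are under 500000 bases apart. Both genes were tested in 8 of these pairs, and the r of their log2 CPM over the 15 libraries was above 0.15 for 1 pair. Kcnj9 (chr1:172320508-172329322) and Kcnj10 (chr1:172341210-172374085) are 11.9 kb apart on chromosome 1, and their log2 CPM had r = 0.036 over the 15 libraries. Kcnj16 and Kcnj2, 38.2 kb apart on chromosome 11, had r = -0.55, and the Kv1 genes Kcna1 and Kcna6, 62.5 kb apart on chromosome 6, r = 0.15. The Kv1 genes Kcna3 and Kcna2, 52.8 kb apart on chromosome 3, had r = 0.65, and the other 7 pairs ran from -0.55 to 0.15.

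The 250 bases before a RefSeq transcript start of 4 Kir genes are shown because these genes span the patterns above: Kcnj3 and Kcnj9 went with cortical markers, Kcnj4 with spiny projection markers and Kcnj10, next to Kcnj9, with glial markers. They were chosen after their values were seen. Sequences are from RefSeq (GRCm38.p6, the build also called mm10), 5′ to 3′ on the strand of the gene. Capitals mark the GC box GGGCGG and the TATA box TATAAA wherever they occur on either strand. The windows are chr2:55435720-55435969 (plus strand), chr15:79505242-79505491 (minus), chr1:172329323-172329572 (minus) and chr1:172340960-172341209 (plus), in the order of the sequences. Those of Kcnj9 and Kcnj10 end at the start of the RefSeq gene, whereas the starts used for Kcnj3 and Kcnj4 lie 24.2 kb and 7.27 kb inside the gene, downstream of its first base.
Kcnj3: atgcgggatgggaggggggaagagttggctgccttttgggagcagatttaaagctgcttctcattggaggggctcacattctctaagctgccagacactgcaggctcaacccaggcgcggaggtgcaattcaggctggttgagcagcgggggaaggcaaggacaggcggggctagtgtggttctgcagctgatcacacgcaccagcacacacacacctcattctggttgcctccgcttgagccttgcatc
Kcnj4: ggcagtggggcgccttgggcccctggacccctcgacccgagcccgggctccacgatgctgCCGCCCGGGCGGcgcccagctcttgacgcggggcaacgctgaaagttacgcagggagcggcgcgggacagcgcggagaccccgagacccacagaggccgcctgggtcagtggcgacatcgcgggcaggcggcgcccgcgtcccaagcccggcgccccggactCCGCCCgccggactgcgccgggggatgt
Kcnj9: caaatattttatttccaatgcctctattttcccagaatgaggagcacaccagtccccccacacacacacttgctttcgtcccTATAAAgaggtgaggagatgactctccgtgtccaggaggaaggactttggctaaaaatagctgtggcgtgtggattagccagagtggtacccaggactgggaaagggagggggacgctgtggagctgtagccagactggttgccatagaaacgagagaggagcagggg
Kcnj10: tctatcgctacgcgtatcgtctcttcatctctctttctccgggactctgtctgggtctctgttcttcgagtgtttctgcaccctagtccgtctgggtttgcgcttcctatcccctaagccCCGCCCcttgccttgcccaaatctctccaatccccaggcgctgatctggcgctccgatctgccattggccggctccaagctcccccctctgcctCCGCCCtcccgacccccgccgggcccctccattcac

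Kcnj4 has 3 GC boxes and 35 CpG dinucleotides in this window, Kcnj10 has 2 and 17, and Kcnj3 has 0 and 7. Kcnj9 has 0 GC boxes, 1 TATA box and 5 CpG. None of the 4 holds the cyclic AMP response element TGACGTCA. RefSeq starts were found for 67 of the 90 genes, with 92 windows in all. Of these windows 45.7% hold a GC box, against 32.7% of the 32851 windows of all genes, and 2.17% a TATA box, against 12.4%. The response element was in 0 of the 92 and in 1.55% of all windows, and the E-box CANNTG in 66.3% and 66.2%. The median GC content of the 92 windows was 58.8%, against 52.4%. The windows of all genes cover 27025 genes, more than the 21949 protein-coding genes of the deposited tables. They are thus not matched by gene type to the potassium channel genes, which are all protein-coding. Some genes have several windows that overlap, and a match is a run of letters, not evidence of binding.

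Genes whose products work with potassium channels, 29 in a list of partners, showed no called difference either. Of 27 tested, edgeR's quasi-likelihood test called 0 in each generation and 0 for the difference. In F1 12 were above 0 and 15 below (median -0.013), and in F2 11 and 16 (median -0.013). Lrrc55, a BK gamma subunit, had an F1 log2 fold change of -0.46 (SE 0.14, unadjusted p = 0.011), with METH libraries wholly below saline. The Kv4 partners Dpp6 and Dpp10 were at -0.024 and -0.044 in F1 and at -0.015 and 0.19 in F2. Abcc8 and Abcc9, the sulfonylurea receptors that pair with Kir6 pores, were at 0.055 and 0.084 in F1 and at 0.22 and -0.23 in F2.

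The 15 genes not tested in at least 1 generation were Kcna7, Kcna10, Kcne1, Kcne2, Kcne3, Kcnj1, Kcnj15, Kcnk7, Kcnk15, Kcnk16, Kcnk18, Kcnmb3, Kcnn4, Kcnrg and Kcnv2. Kcnn4 (124 reads in all) passed the filter in F2 only and Kcnk7 (82 reads) in F1 only. The rest had between 0 and 80 reads over the 15 libraries, too few to show a difference at this depth.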

How the data were processed

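RNA from striatum of 15 male mice was sequenced. Build mm10 and the tools StringTie 2.1.3b, HISAT2 2.1.0, bcl2fastq 2.20.0 and Trimmomatic are named in the submitters' processing notes; order, settings, strand and how counts were derived: not given in the sources used here. Gene tables that the authors deposited, 1 per generation, hold whole-number counts per gene, which were used as raw counts. They also hold FPKM and TPM, normalized by the authors per the file headers.

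The 90 members and all lists were chosen with earlier results of these data known. In R 4.3.3, counts of all genes were fitted with edgeR 4.0.16 (TMM, filterByExpr with a minimum count of 10, quasi-likelihood test, Benjamini-Hochberg adjusted p threshold 0.05), each generation on its own table and the interaction over both. The quasi-likelihood test gives no standard error, so SE here is the absolute log2 fold change divided by the square root of the test's F statistic. CPM used TMM-scaled totals set within each generation, and log2 CPM a prior count of 2. Named genes were 27 fixed members, the 5 smallest p per comparison and direction, the 3 highest TPM per class, non-overlapping members, the 5 extremes of variation and of cortical correlation at each end, and untested members. A few genes are not reported here, in text or figures, but stay in the fits and counts. Marker and partner lists were hand-written; exon overlaps came from the GENCODE vM21 annotation.

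Alternatives were limma 3.58.1 (voom on counts, trend on log2(TPM + 1) and log2(TPM + 0.1)), DESeq2 1.42.0 (its Wald test, or its size factors in edgeR), other filters (none, or a mean CPM of at least 1), a threshold of 0.1, each library left out, a replicate block, a cortical marker covariate, groups of libraries left out and 1 fit of all libraries. Steps were tested on simulated data. Of 21 replicate pairs, none agreed within sampling noise (chi-square per degree of freedom 15.0 to 60.4). Figures used Python 3.11.15 and matplotlib 3.10.9.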

Additional observations from a re-analysis of the deposited data

Results flagged for a closer look

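In 7 of the 153 groups of 4 libraries examined, over 51 named and tested genes, 1 library stood far from the other 3, which chance alone gives in about 1 of 20 groups. Among Kv and related genes, Kcnd3 was at 43.7 CPM in F2 METH replicate 4 (others 39.8 to 40.1) and Kcnh1 at 86.7 CPM in F2 saline replicate 1 (others 97.5 to 99.4). The ELK gene Kcnh8 was at 0.501 CPM in F1 saline replicate 4 (others 0.876 to 0.920), the saline library nearest to the METH libraries in F1. The SK gene Kcnn3 was at 78.5 CPM in F2 saline replicate 2 (others 55.9 to 59.2), and in the same library the inward rectifier Kcnj16 was at 7.91 CPM (others 11.2 to 11.4). Kcnj11 was at 45.4 CPM in F1 saline replicate 1 (others 49.3 to 49.9) and the K2P gene Kcnk6 at 2.80 CPM in F1 saline replicate 2 (others 4.00 to 4.22).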

How the results depend on the processing

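No potassium channel gene was called under any of the 19 F1 alternatives, the 21 F2 alternatives or the 26 for the difference. The threshold of 0.1 was applied to the main edgeR fit only, and every other alternative kept 0.05. The smallest adjusted p was 0.0804 in F1 (Kcnt1, DESeq2 Wald test, log2 fold change 0.34, higher in 3 of 3 METH libraries), with the smallest adjusted p of the other F1 alternatives reaching up to 1.00, and 0.399 in F2 and 0.408 for the difference, both without F2 saline replicate 4. Genes with an unadjusted p under 0.05 numbered 3 to 25 (F1), 0 to 7 (F2) and 3 to 12 (difference), against 8, 5 and 4, while over all genes the share ran from 2.58% to 9.98% (F1), 3.26% to 8.71% (F2) and 4.22% to 6.84% (difference). The F1 extremes were 3 without the libraries high in Slc17a7 (2.58% of all genes) and 25 with the replicate block. The F1 median log2 fold change of -0.083 was -0.16 on log2(TPM + 0.1), where the median over all genes moved from -0.004 to -0.060, and the cause was not tested; it ran from -0.11 to -0.045 with each library left out, the first without F1 saline replicate 4 and the second without F1 METH replicate 1. The F2 median of 0.003 ran from -0.027 without F2 METH replicate 3 to 0.025 without F2 saline replicate 4. The count of genes, of 76, whose groups do not overlap was 6, 6 and 7 in F1 and 2, 3 and 1 in F2 with TMM, DESeq2 size factors and deposited TPM. Over all genes tested the shares with TMM and DESeq2 size factors were 5.5% and 5.53% in F1 and 2.54% and 2.57% in F2. For deposited TPM the share over all genes was not counted, and the cause of the changes was not tested. Of 51 named and tested genes, the sign was the same in every alternative for 31 (F1), 27 (F2) and 30 (difference).

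The labels do not say whether libraries with the same replicate number are paired. Replicate numbers here, also in the replicate block, are those of the sample titles. Animals carry other numbers: 1, 3, 6 and 7 in F1 saline and 2, 3 and 9 in F1 METH mice, in replicate order. In F2 they are 1, 3, 6 and 7 in saline and 2, 5, 6 and 9 in METH mice. Whether a number shared by F1 and F2 animals links them is not stated, and the fits treated all libraries as independent unless blocked. Deviations of libraries with the same replicate number had correlations of -0.0076 to 0.35 in F1 (3 pairs, 1 over 0.1) and -0.071 to 0.037 in F2 (4 pairs, none over 0.1). With so few pairs these correlations cannot decide whether the animals were paired. With the replicate block 0 genes were called in each comparison, the medians were -0.13 in F1 and 0.013 in F2, and 25 (5 higher, 20 lower), 2 and 6 genes had an unadjusted p under 0.05, against 9.98%, 4.12% and 4.45% of all genes. The METH library correlated best with the saline library of its own replicate number for 1 of 3 in F1 and 0 of 4 in F2. Genes at low counts, such as Kcnh8, and genes with a large spread, such as Kcnj6, limit what these group sizes can show.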
